A study of Oryctolagus cuniculus with 3 samples.

Results

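Black and chinchilla back skin are the skins under the pigmented coats of a litter of Rex rabbits, a domestic breed with short plush fur. The comparison took 2 of the 3 RNA libraries of the series, chosen by the coat colour in their labels. It joined them by coding sequence and set log2(RPKM + 1) in black against log2(RPKM + 1) in chinchilla skin. RPKM is a read number scaled to the coding length and to all assigned reads of the library. The black, white and chinchilla animals were full siblings raised together and sampled at 42 days of age, around the first moult, and 1 piece of back skin from each gave 1 library. The white library enters below as a level to which both pigmented skins were set, and as a partner of each in comparisons of whole profiles. No treatment differed between the animals. The labels give neither their sex nor their alleles at coat colour loci, so coat colour cannot be told apart from any other difference between 2 siblings.

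Hair colour is made in the bulb of the growing follicle, where melanocytes synthesise melanin and pass it to the keratinocytes that form the shaft. Black hair holds eumelanin along its length. Banded coats arise while the hair grows, as melanocytes switch between eumelanin, driven by melanocortin signalling, and the yellow pheomelanin, driven by the agouti protein. Chinchilla rabbits have banded hair in which the yellow pigment is largely missing, and the allele behind it is traditionally placed at the locus of tyrosinase, the first enzyme of melanin synthesis. Skin as a whole holds melanocytes as a small minority beside epidermis, follicle epithelium, dermis, vessels, muscle and fat. In such bulk samples, fewer cells of a type and less RNA per cell cannot be told apart.

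The deposited lists name coding sequences by Ensembl protein identifier and pair none of them with a gene symbol, and a RefSeq table of 38822 rabbit genes carries 0 Ensembl identifiers. Genes of pigmentation, hair and the other skin cell types were therefore not evaluated, and the tissue label was not checked against markers. The 2 coding sequences farthest apart in each direction are given by identifier. All others are given by their coding length, which has no untranslated regions. With 1 library per coat colour there is no replicate check, no p-value is given, and each 95% interval is an exact one for the ratio of 2 read numbers that covers counting error only.

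The black library held 16.2 M assigned reads (M, mega), the chinchilla library 15 M and the white library 14.8 M. Reads were found for 15336 coding sequences in either library, of 15558 in the series, and for 14212 in both. Of the 15336, 12516 had at least 1 RPKM in one library or the other and were compared. The levels of the compared coding sequences lay close together for the most part. The central log2 difference, black minus chinchilla, was -0.04, and the middle of the distribution ran from -0.39 at the 25th to 0.39 at the 75th percentile. Of the 12516, 68.3% differed by less than 1.5-fold. The upper tail was longer than the lower one, with a 99th percentile of 1.93 against a 1st percentile of -1.43. The profiles can also be set side by side through their reads. To turn the read distribution of one skin into that of the other, 18.4% of the reads would have to be assigned to other coding sequences, against 14.03% between black and white and 10.5% between chinchilla and white. Fewer coding sequences carried this in the direction of chinchilla. There, 76 made up 50% of the gain in read share, and the first 10 made up 26.5%. In the direction of black, 192 made up 50%, and the first 10 made up 19.8%.

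A level at least 2-fold higher in black than in chinchilla skin was found for 903 coding sequences, 7.21% of those compared, and a level at least 2-fold lower for 530, or 4.23%. Most of these differences were modest. Of the 903, 644 lay between 2-fold and 3-fold, as did 462 of the 530. Beyond 4-fold there were 112 higher (0.895%) and 16 lower (0.128%), and beyond 8-fold 42 (0.336%) and 6 (0.0479%). The excess of higher over lower coding sequences was thus wider at larger differences, and higher ones outnumbered lower ones under each alternative run. The size of the counts depended on the pseudocount: with 5 RPKM in place of 1, 379 were higher and 189 lower. Counting error was small beside most of the differences. The counting interval of the ratio included equal levels for 3 of the 903 and 7 of the 530, and lay wholly beyond 2-fold for 705 and 286. Without the 2-fold criterion on the log2(RPKM + 1) scale, intervals beyond 2-fold numbered 737 higher (5.89%) and 293 lower (2.34%). The higher library gave a median of 545 reads for the 903 and 227.5 reads for the 530, and fewer than 10 reads for 9 and 10 of them.

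**Figure D1:**
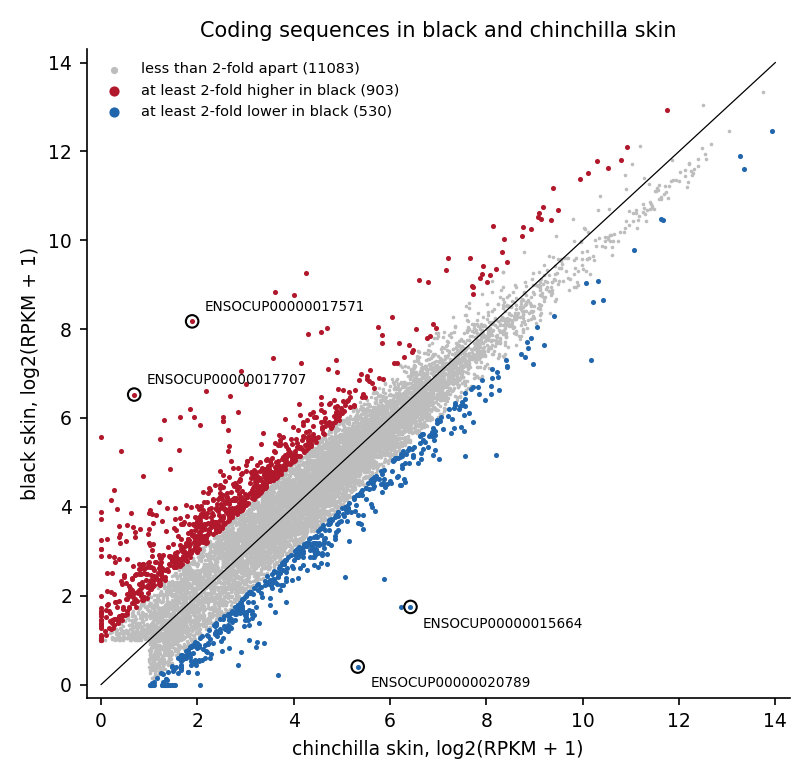
Level of each compared coding sequence in chinchilla skin (x) and black skin (y), as log2(RPKM + 1), 1 library per skin, with the line of equal levels. The 903 coding sequences at least 2-fold higher in black are red, the 530 at least 2-fold lower are blue, and the 4 given by identifier are circled. The red points reach farther from the line than the blue ones.

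The sets differed in level, length and weight. The 903 had a median coding length of 1815 bases against 1305 for all compared coding sequences. Their median level was 15.6 RPKM in black, 4.91 RPKM in chinchilla and 5.77 RPKM in white skin. Together they held 13.0% of the black library's reads, 4.67% of the chinchilla and 7.98% of the white library's. The 530 were shorter, with a median of 865.5 bases, and had medians of 6.54 RPKM in black, 17.2 RPKM in chinchilla and 10.6 RPKM in white skin. They held 3.11%, 8.17% and 5.01% of the same libraries. In both sets the median level of white skin lay between those of the pigmented skins, close to chinchilla for the 903 and farther from both for the 530.

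The coding sequence farthest above in black was ENSOCUP00000017571, of 5838 bases. The black library gave 27301 reads (288 RPKM), the chinchilla library 237 reads (2.71 RPKM) and the white library 69 reads (0.797 RPKM). Black thus stood apart from both other skins. The ratio of black to chinchilla was 106 (95% interval 93.6 to 121), and the log2 difference was 6.28. With the trend of the differences along coding length taken out, that difference was 5.72. In black skin, reads touched 99.98% of the coding sequence, and in chinchilla skin 83.1%.

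ENSOCUP00000017707, of 1203 bases, was second, with another pattern over the 3 skins. The black library gave 1782 reads (91.2 RPKM), the chinchilla library 11 reads (0.610 RPKM) and the white library 2133 reads (119.6 RPKM). Here chinchilla was the skin that stood apart, with a ratio of black to chinchilla of 149.6 (83.4 to 300.3). Reads touched no more than 63.5% of this coding sequence in black and 63.6% in white skin. Among the 755 higher coding sequences with at least 100 reads in black, 12 had a covered share under 70%, and the median was 98.98%.

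The next 3 were at their highest in black skin and low in both others. The first, of 225 bases, was seen with 170 reads (46.5 RPKM) in black and with none in chinchilla or white skin. With up to 3 reads possible behind a count of 0, its ratio was taken against 3 reads. It was then 52.3-fold higher in black than in chinchilla, leaving out the counting error of its 170 reads. A 1134-base coding sequence was at 453 RPKM in black, 11.2 RPKM in chinchilla and 5.77 RPKM in white skin, a 40.6-fold ratio of black to chinchilla (35.1 to 47.1). A 1614-base coding sequence was at 611 RPKM in black, 18.0 RPKM in chinchilla and 7.48 RPKM in white, so that the ratio was 33.9-fold (30.8 to 37.4). These last 2 rested on 8350 and 16015 reads in black skin, and were still covered over 96.9% and 99.5% of their length in chinchilla skin.

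In the other direction, ENSOCUP00000020789, of 1911 bases, was farthest below in black. The black library gave 10 reads (0.322 RPKM), the chinchilla library 1123 reads (39.2 RPKM) and the white library 1170 reads (41.3 RPKM). Black stood apart again, with chinchilla 122-fold above it (65.9 to 254) and a log2 difference of -4.93. The 10 reads in black touched 41.2% of the coding sequence, and the 1123 reads in chinchilla no more than 49.1%. Low covered shares were more common among the lower coding sequences. Of the 359 with at least 100 reads in chinchilla, 19 were under 70%. That is 5.29%, against 2.01% of all compared coding sequences with at least 100 reads in the higher library. These shares were not matched for read number or length. The higher library gave a median of 227.5 reads for all 530 lower coding sequences, against 500.5 for all compared.

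ENSOCUP00000015664, of 366 bases, was seen with 14 reads (2.36 RPKM) in the black library, 466 reads (84.9 RPKM) in the chinchilla library and 8 reads (1.47 RPKM) in the white library. Chinchilla was thus the skin that stood apart, 36.04-fold above black (21.3 to 66.4). A coding sequence of nearly the same length, 369 bases, had nearly the same values. The black library gave 14 reads (2.34 RPKM), the chinchilla library 410 reads (74.1 RPKM) and the white library 9 reads (1.645 RPKM). Whether these 2 are related copies is not known here, and since the authors counted unique reads, reads shared by near-identical copies would be missing from both. The following pair was low in black and raised in both other skins. An 885-base coding sequence was at 4.17 RPKM in black, 57.9 RPKM in chinchilla and 30.9 RPKM in white skin, a 13.9-fold ratio of chinchilla to black (10.6 to 18.3). One of 774 bases had 136 reads (11.7 RPKM) in chinchilla against 2 reads (0.159 RPKM) in black, a 73.6-fold ratio whose interval ran from 20 to 614, and 95 reads (8.28 RPKM) in white skin.

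Coding sequences with reads in one pigmented skin and none in the other were mostly at the limit of depth. Reads in black alone were found for 583, with a median of 2 reads, and 411 of them had at most 3. Reads in chinchilla alone were found for 541, also with a median of 2, and 406 of them had at most 3. At least 10 reads against 0 were seen for 42 coding sequences in black and 16 in chinchilla. At least 100 against 0 were seen for 6 in black and for none in chinchilla, where the highest number was 34. The 42 included 19 without a read in white skin as well, and the 16 included 1. The one with most reads in black alone, of 5481 bases, had 184 reads (2.07 RPKM) in black, 4 reads in white and none in chinchilla skin. Taken against 3 reads in place of 0, it was 56.6-fold higher in black than in chinchilla. One of 834 bases had 166 reads (12.3 RPKM), one of 1284 bases 135 reads (6.47 RPKM) and one of 936 bases 129 reads (8.49 RPKM) in black, and all 3 had none in white or chinchilla skin. Conversely, one of 1269 bases had 52 reads (2.76 RPKM) in white, 34 reads (1.79 RPKM) in chinchilla and 0 in black skin, at least 12.3-fold higher in chinchilla.

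The differences were not spread evenly over abundance, taken as the mean RPKM of both libraries. Below 1 RPKM, 31 of 318 coding sequences were higher in black and 27 lower, and from 1 to 5 RPKM 219 and 148 of 2163. The class below 1 RPKM holds only coding sequences that reached 1 RPKM in one library. Those below 1 RPKM in both are missing from it, so its shares are partly fixed by that criterion. From 5 to 20 RPKM, 397 of 3795 coding sequences were higher in black (10.5%) and 162 lower (4.27%). From 20 to 100 RPKM the shares were 4.07% and 2.77% of 4866. From 100 to 1000 RPKM, 45 of 1261 were higher and 52 lower, so the excess of higher ones was not seen in that class. Among the 113 coding sequences from 1000 RPKM, 13 were higher and 6 lower. From 5 RPKM upward, the class medians fell with abundance. The median difference was 0.08 (log2) from 5 to 20 RPKM, -0.07 from 20 to 100 RPKM, -0.18 from 100 to 1000 RPKM and -0.51 from 1000 RPKM, where most coding sequences were thus below their chinchilla level in black while the 2-fold differences were more often above it. The higher coding sequences of the 5 to 20 RPKM class had a median length of 2208 bases against 1491 for the whole class. From 1000 RPKM the class itself was short, with a median of 564 bases, and its higher coding sequences had one of 504 bases.

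**Figure D2:**
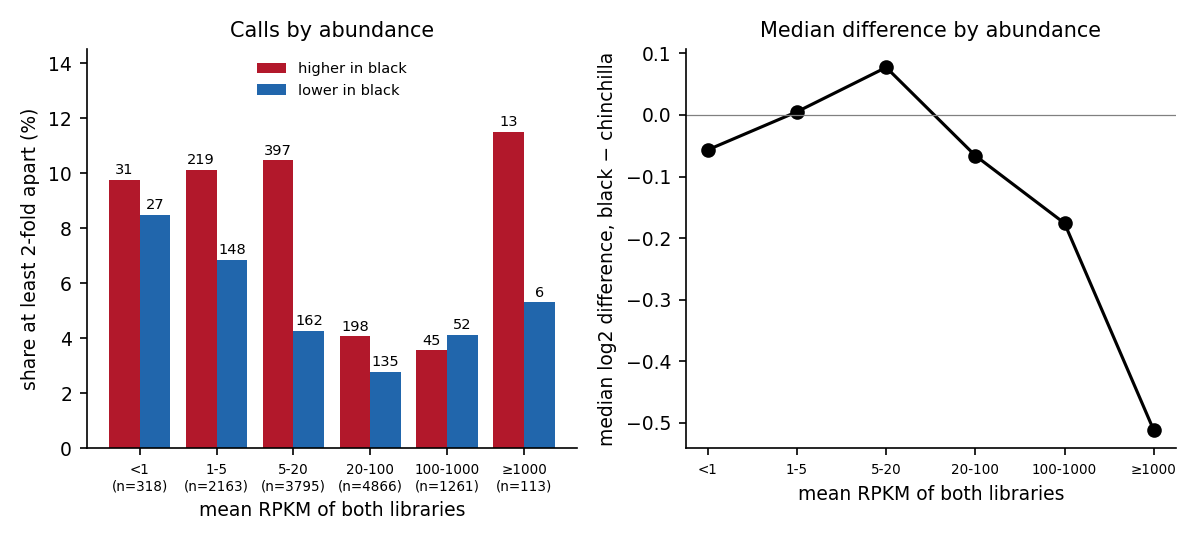
Left, share of coding sequences at least 2-fold higher (red) or lower (blue) in black than in chinchilla skin in 6 classes of mean RPKM, with the number of coding sequences above each bar and the class size below. Right, median log2 difference, black minus chinchilla, in the same classes. The class below 1 RPKM holds only coding sequences that reached 1 RPKM in one library, which partly fixes its shares. The share of higher coding sequences was 10.5% from 5 to 20 RPKM and 3.57% from 100 to 1000 RPKM, and the median fell to -0.51 in the most abundant class.

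The 13 most abundant coding sequences that were higher in black held 5.14% of reads in the black library, 2.16% in the chinchilla and 4.33% in the white library. The first, of 4149 bases, alone held 3.26% of the reads in black and 1.44% in chinchilla. Its level was 7865 RPKM in black, 3465 RPKM in chinchilla and 6699 RPKM in white skin, a 2.27-fold ratio of black to chinchilla (2.26 to 2.28). Short coding sequences came next. A 264-base coding sequence was at 4418 RPKM in black, 1929.6 RPKM in chinchilla and 4179.8 RPKM in white, so that the ratio was 2.29-fold (2.23 to 2.35). A 297-base coding sequence was at 3542 RPKM in black, 1264 RPKM in chinchilla and 3096 RPKM in white, so that the ratio was 2.80-fold (2.72 to 2.89). One of 339 bases lay nearest to the threshold, with 3562 RPKM in black, 1764 RPKM in chinchilla and 3248 RPKM in white skin, a 2.02-fold ratio whose interval (1.97 to 2.07) reached below 2-fold. The widest of the 13 was one of 1491 bases, with 2298 RPKM in black, 667 RPKM in chinchilla and 1982 RPKM in white, so that the ratio was 3.44-fold (3.38 to 3.51). Of the 13, 7 were of at most 693 bases, as were 71 of all 113 coding sequences from 1000 RPKM, so short length was not particular to them. On the log2(RPKM + 1) scale, the white level lay between the pigmented skins and nearer to black in all 13. For one of 1149 bases this was only just so (white 943 RPKM, black 1571 RPKM, chinchilla 545 RPKM). One of 1155 bases was graded as well (white 1191 RPKM, black 1639 RPKM, chinchilla 716 RPKM). Chinchilla was thus lowest in all 13, but did not stand clearly apart from white in each of them.

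The 6 most abundant coding sequences that were lower in black held 2.08% of reads in the black library, 5.56% in the chinchilla and 3.25% in the white library. They were graded over the 3 skins. A 1707-base coding sequence was at 5650.2 RPKM in black, 15600.1 RPKM in chinchilla and 8905 RPKM in white skin, a 2.76-fold ratio of chinchilla to black (2.74 to 2.78). One of 1890 bases was 2.59-fold apart (2.57 to 2.61), with 3806 RPKM in black, 9858 RPKM in chinchilla and 6019.9 RPKM in white skin. One of 300 bases was the widest, at 3120.3 RPKM in black, 10423 RPKM in chinchilla and 5275 RPKM in white, so that the ratio was 3.34-fold (3.28 to 3.40). The other members of the 6 ran the same way over the skins, with black lowest and chinchilla highest. White was between both in all 6, and nearer to black in 5.

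**Figure D3:**
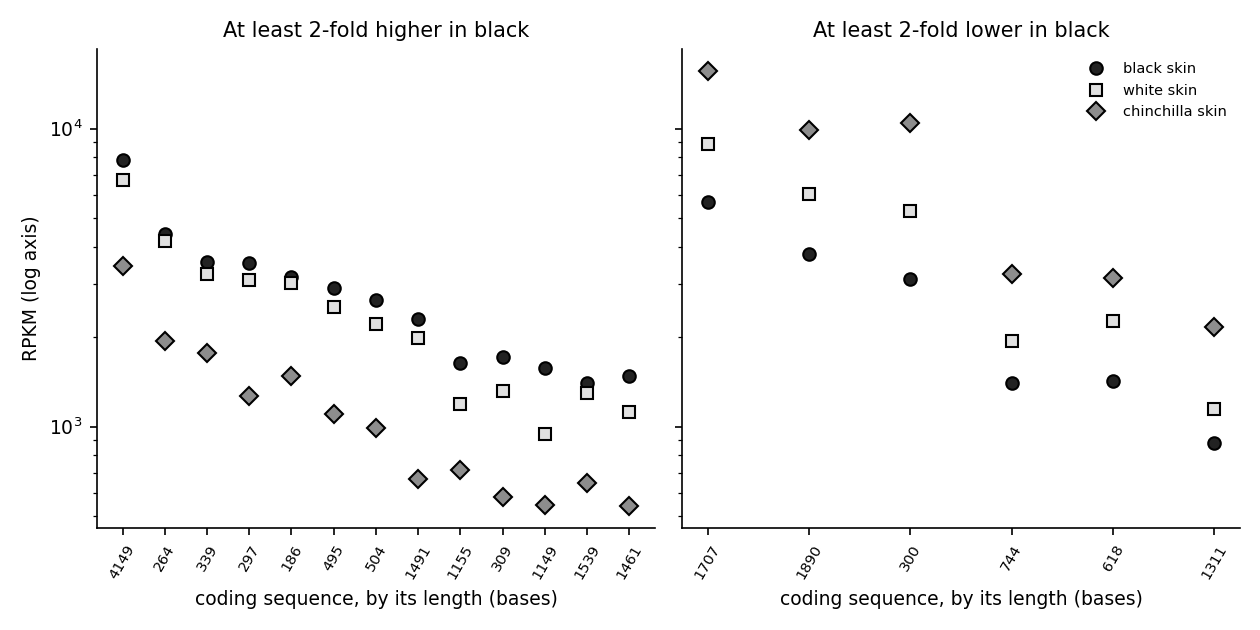
RPKM (log axis) in each of the 3 skins of the coding sequences from 1000 RPKM (mean of both pigmented skins) that were at least 2-fold higher (left, 13) or lower (right, 6) in black than in chinchilla skin, each named by its coding length. Each point is 1 library. In the left panel the white points sit nearer to the black than to the chinchilla ones, only just so at 1149 bases. In the right panel they lie between black and chinchilla.

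The place of the white library, which the black against chinchilla contrast does not use, was then read for every coding sequence 2-fold apart. It was set on the log2(RPKM + 1) scale, with 0 at the chinchilla level and 1 at the black level. For the 903 higher in black, white lay nearer to chinchilla in 736 (81.5%), against 63.6% of all compared coding sequences, and its median place was 0.16. It lay between both in 623 (69.0%), against 47.9% of all compared, at or below the chinchilla level in 258 (28.6%, against 33.5%) and at or above the black level in 22 (2.44%, against 18.6%). For the 530 lower in black, white was as often near one as the other. It was nearer to chinchilla in 263 (49.6%, against 63.6% of all compared), with a median place of 0.50, and lay between both in 439 (82.8%). White was thus mostly between the pigmented skins in both sets, on the side of chinchilla in the higher set and split about evenly in the lower set. The sets were picked for a wide gap between black and chinchilla, and the place of white is scaled to that gap. Comparisons with the shares of all compared coding sequences, here and below, are therefore partly fixed by the selection. These counts describe 3 animals.

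Within the set higher in black, the place of white changed with abundance. Among 647 coding sequences below 20 RPKM, white was nearer to chinchilla in 564 (87.2%), with medians of 10.5 RPKM in black, 3.03 RPKM in chinchilla and 3.62 RPKM in white skin. Among 198 from 20 to 100 RPKM it was nearer to chinchilla in 158 (79.8%). Among 58 from 100 RPKM it was nearer to chinchilla in 14 (24.1%) and nearer to black in 44, with medians of 580.4 RPKM in black, 208 RPKM in chinchilla and 414 RPKM in white skin. Over all 1374 compared coding sequences from 100 RPKM, called or not, white was nearer to chinchilla in 67.5%, and over all 6276 below 20 RPKM in 61.6%. In the abundant part of the set white was thus mostly on the side of black, and in the rest mostly on that of chinchilla. In the set lower in black, the share nearer to chinchilla was 47.5% below 20 RPKM and 56.9% from 100 RPKM. Of the 112 beyond 4-fold higher in black, white was nearer to chinchilla in 101, and in 62 (55.4%) it lay at or below the chinchilla level. Of the 16 beyond 4-fold lower in black, white was nearer to chinchilla in 12.

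**Figure D4:**
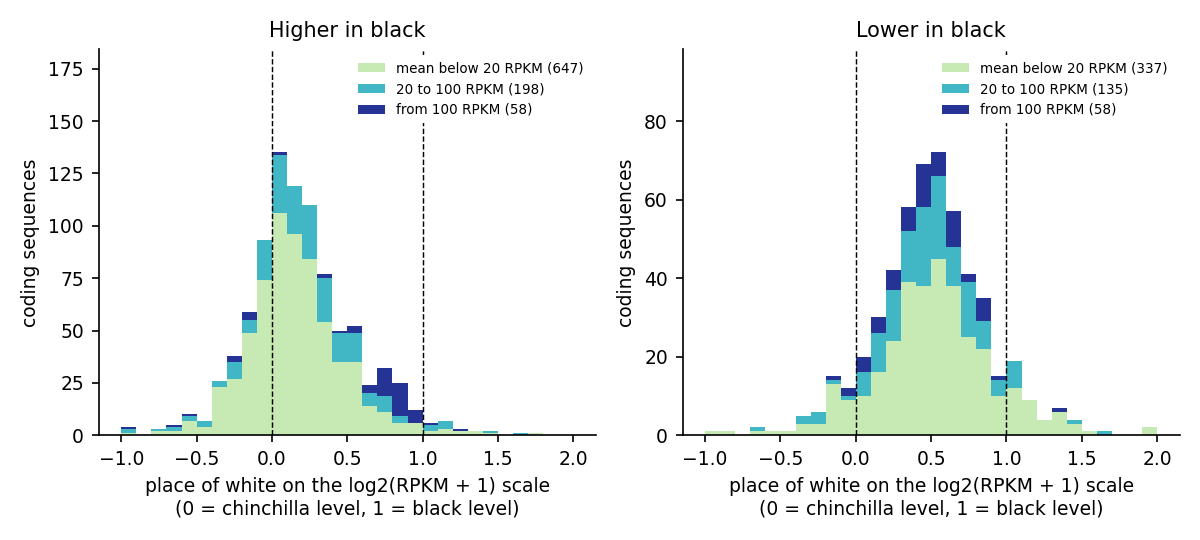
Place of the white library between chinchilla (0) and black (1) on the log2(RPKM + 1) scale for coding sequences at least 2-fold higher (left, 903) or lower (right, 530) in black than in chinchilla skin, stacked by mean RPKM of black and chinchilla. Values beyond the axis are drawn in the outermost bins. The left distribution is centred near 0.16, with most coding sequences from 100 RPKM nearer to the black level, and the right one near 0.50.

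Coding length moved with the comparison. Above a mean of 5 RPKM, the shortest quintile (111 to 693 bases) was lower in black, with a median log2 difference of -0.31, and 25.4% of its 2007 members were above 0. The following quintiles had medians of -0.19, -0.08 and 0.07. The longest, from 2373 bases, had a median of 0.34, and 75.2% of its 2005 members were above 0. Calls followed the same course. In the shortest quintile 90 were higher and 137 lower in black, and in the longest 268 were higher and 17 lower. The trend was present on both sides of 100 RPKM. Below it, the quintile medians ran from -0.27 to 0.35, and from it upward from -0.37 to 0.19. White sat by chinchilla for most long coding sequences: of the 268 higher in the longest quintile, 259 had white nearer to chinchilla, against 75.4% of all in that quintile. Of the 90 higher in the shortest, 50 did (55.6%), against 68.2% of all in that quintile.

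Taking out this trend with a smooth curve on log2 length left 844 higher and 388 lower, of which 692 and 318 were also in the sets above. The longest quintile then held 125 higher and 57 lower, and the shortest 129 and 59. The excess of higher over lower coding sequences was thus present in every length quintile once the trend was removed. The covered share of the coding sequences moved with length too. At matched read numbers, of 50 to 200 in both libraries and within 25% of each other, the median covered share in the longest quintile, from 2379 bases, was 84.8% in black and 81.6% in chinchilla skin. The median difference over these 87 coding sequences was 3.07 percentage points (quartiles -1.36 and 8.16), and black had the larger share in 59. In the shortest quintile the median difference was 0.00 points over 199. The part of the covered share in the length trend was not tested.

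**Figure D5:**
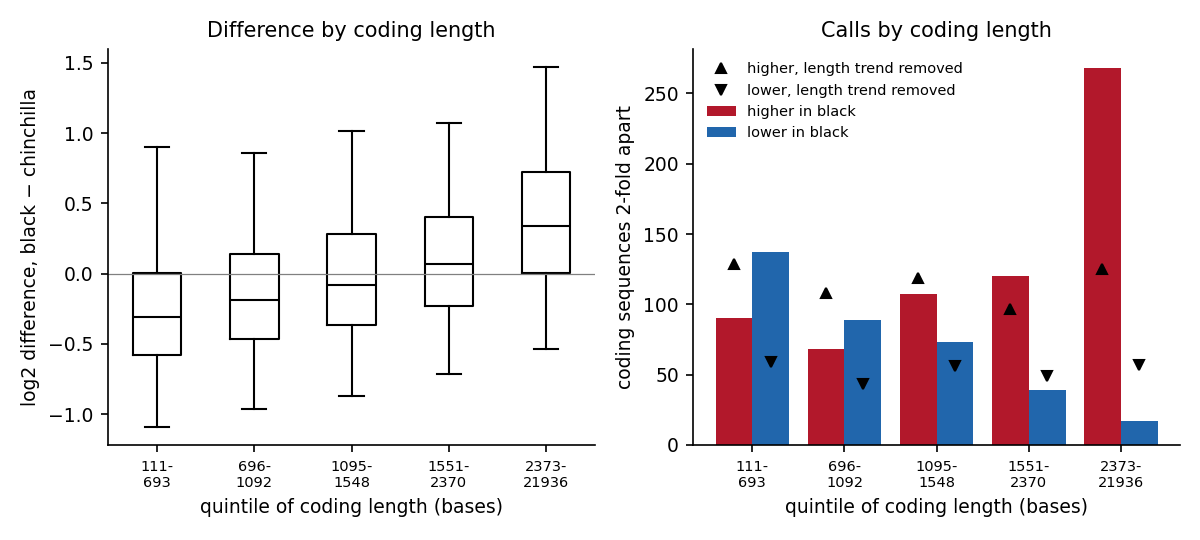
Left, log2 difference, black minus chinchilla, in quintiles of coding length, for means from 5 RPKM (box, quartiles and median; whiskers, 5th to 95th percentile). Right, number at least 2-fold higher (red) or lower (blue) in black in the same quintiles, with triangles for the numbers after removal of the length trend. The median ran from -0.31 to 0.34, and the 268 higher in the longest quintile became 125 without the trend.

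Over the 11533 coding sequences that reached 1 RPKM in every library, the log2 levels of black and chinchilla skin had a Pearson correlation of 0.943, against 0.958 for black and white and 0.981 for chinchilla and white. The points share their libraries and are not independent replicates. The standard deviation of the log2 difference was 0.62 for black minus chinchilla, 0.55 for black minus white and 0.37 for chinchilla minus white. Black and chinchilla skin, both pigmented, were thus the pair with the widest spread of the 3, and the chinchilla profile lay nearer to the white one than to the black one. These values were not adjusted for coding length. In the shortest length quintile the median log2 difference was -0.28 for black minus white and -0.02 for white minus chinchilla. In the longest it was 0.38 and -0.06, so the length trend set black apart from both other libraries. Its part in the ranking of the pairs was not tested.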

How the data were processed

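RNA was extracted with TRIzol, enriched on oligo(dT) beads, fragmented and made into Illumina libraries, per the labels' protocols. The aligner, read counter, genome build, annotation and strandedness are named in no source used here. Each library came, per the file headers, with the authors' counts of uniquely assigned reads per coding sequence, the coding length in bases, the covered share in percent, and RPKM values scaled to the assigned reads of the library. The deposited coverage percentages were used as given. Where one list lacked an identifier of the other, 0 reads were entered.

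A coding sequence was called higher or lower at a difference in log2(RPKM + 1) of at least 1, provided that the higher library reached 1 RPKM. That scale understates the change of low coding sequences. Ratios of RPKM carry an exact 95% Clopper-Pearson interval of the conditional share of reads. Without molecular identifiers, reads are not independent molecules, so intervals cover counting error only. A fold against 0 reads was computed against 3 reads in that library. It leaves out the counting error of the other library's reads and is not the lower limit of an exact interval. The length trend was a lowess curve (fraction 0.3) on log2 length. The calls, intervals and trend removal were tested on simulated reads that held counting error only, with planted changes and an imposed length trend. That test covers the code and leaves out variation between animals.

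The rule for printed items took the 2 coding sequences with the highest and the 2 with the lowest difference among those with at least 10 reads in the higher library by identifier. By length it took the next 3 of each, the most abundant called ones and those with most reads against 0. From the most abundant called ones, all from a mean of 1000 RPKM upward were taken, a limit set after their values were seen. The comparison, its classes and its alternatives were chosen with earlier results of these data known. Intervals were computed in SciPy 1.17.1 and the lowess curve in statsmodels 0.14.6, with tables in pandas 2.3.3 and figures in matplotlib 3.10.9, under Python 3.11.15.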

Additional observations from a re-analysis of the deposited data

How the results depend on the processing

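Of 70 alternative values, 14 moved, by more than 1.5 times or, for one coding sequence, by more than the counting interval allows. A change of direction was defined only for the differences of single coding sequences and for the quintile medians of length, and 0 of these changed direction. Counts and shares could only stay or move. The pseudocount and the strictness of the call moved the counts. With a pseudocount of 5, 379 coding sequences were higher and 189 lower in black, with 0.1 there were 1240 and 817, and at 4-fold 112 and 16. Counting intervals wholly beyond 2-fold numbered 737 and 293 over all 12516. A larger pseudocount shrinks low levels' differences by construction. The 3 other scalings gave 810 to 971 higher and 454 to 631 lower, and a floor of 5 RPKM 753 and 413. Leaving out the floor changed no call, since the pseudocount of 1 already sets it.

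ENSOCUP00000017571 had a log2 difference of 6.68 with a pseudocount of 0.1, 5.25 with 5 and 5.72 without the length trend. ENSOCUP00000017707 had 7.01 and 4.10 with 0.1 and 5, so with 0.1 it passed the former. ENSOCUP00000020789 had -6.54 and -3.05, and ENSOCUP00000015664 had -3.61 with 5. Over 4 alternatives, the share of lower coding sequences with white nearer to chinchilla was 51.3% to 53.7%, against 49.6% in the main setting, so the more frequent side changed. For higher coding sequences that share was 75.2% to 80.1%. From 100 RPKM it was 24.1% to 25.5% and below 20 RPKM 81.8% to 95.5%, alternatives chosen after seeing the data. Leaving out a library would end the comparison. No paired analysis was possible because each coat colour has 1 library without a replicate number.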
